A study of Mus musculus with 4 samples.

Results

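Long intergenic non-coding RNA (lincRNA) genes are transcribed from places of their own between the protein-coding genes, and the chromatin at the start of an active one is usually open. The starts described here were those of GENCODE vM21 lincRNA genes that lie more than 5 kb from every protein-coding transcript start and that had an ATAC-seq peak within 1 kb in at least 1 of 4 peak lists. Of 5854 lincRNA genes on the assembled chromosomes, 5196 had such a distal start, and 921 of these (17.7%) were open by this rule. They were selected on the peak calls themselves, so the total of 921 and the pattern of their calls are descriptions, and tests of the share called were made over all 5196 candidates, library by library.

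ATAC-seq marks open chromatin by the places where a transposase can cut and tag DNA. The donors were WT C57BL/6 mice, male and 7 weeks of age, whose spleens gave the naive CD4+ T cells (gated as CD62Lhigh, CD44low and CD25-). Activation lasted 48 h and combined 5 µg/ml of bound anti-CD3 with 1 µg/ml of anti-CD28. IL-2 was added at 10 ng/ml, and human TGF-β1 at 5 ng/ml. These are Treg-polarizing conditions and were shared by all libraries, and the cells of 2 libraries also received mouse IL-4 (15 ng/ml) while those of the other 2 did not. Each library was made from 50000 cells, and the samples were pools, so the spread between libraries is not a spread between single mice. All 4 lists held a peak at the starts of 12 of 12 T cell markers, among them Cd3e and Cd4. Of 7 B cell markers 1 had a peak in each library without IL-4, but not the same one: Fcrla in replicate 1 and Ms4a1 in replicate 2. With IL-4 each library had 3, Blnk and Ms4a1 in both, Cd22 in replicate 1 and Cd79b in replicate 2. Of 8 myeloid markers Cd14 and Mpo had one in every list, as did Col1a1 of 8 non-blood markers. The part of such cells in the results below was not tested. Replicates 1 and 2 had 77064 and 56645 peaks in the cells without IL-4, against 78670 and 67743 in those given IL-4. Reads are not part of the lists, which leaves sequencing depth unknown.

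A lincRNA start works like the start of a coding gene: RNA polymerase II assembles on a short open stretch, often a CpG-rich one. Some of these genes act through the long RNA, as Malat1 and Neat1 do in the nucleus. Others are hosts whose transcript is cut up for a small RNA. Mir155hg gives miR-155, which is induced in activated lymphocytes, Mir17hg gives the miR-17-92 cluster, which is known for its role in lymphocyte growth, and Snhg genes such as Snhg12 carry small nucleolar RNAs that guide the modification of ribosomal RNA.

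The mature microRNAs of the 3 hosts with the best known small RNAs are shown first, because these are the products that an open host start can serve. The sequences are those of RefSeq (GRCm38), with the seed (bases 2 to 8) in capitals.
miR-155-5p: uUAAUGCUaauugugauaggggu
miR-17-5p: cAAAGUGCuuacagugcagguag
miR-20a-5p: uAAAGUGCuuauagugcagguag
miR-18a-5p: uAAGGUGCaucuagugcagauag
miR-19a-3p: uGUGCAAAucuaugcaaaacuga
miR-19b-3p: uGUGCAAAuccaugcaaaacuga
miR-92a-3p: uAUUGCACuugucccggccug
let-7a-5p: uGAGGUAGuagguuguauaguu
let-7f-5p: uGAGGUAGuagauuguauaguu
let-7d-5p: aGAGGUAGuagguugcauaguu
miR-155-5p comes from Mir155hg. The next 6 come from Mir17hg, where miR-17-5p and miR-20a-5p shared the seed AAAGUGC and miR-19a-3p and miR-19b-3p the seed GUGCAAA. The last 3 come from 6720427I07Rik, whose annotated body holds Mirlet7d, Mirlet7f-1 and Mirlet7a-1, and all 3 shared the seed GAGGUAG.

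The starts themselves fell into CpG-rich and CpG-poor ones, and the following 300 bases (250 before the start and 50 from it on, GRCm38) show both kinds. The capitals mark motifs found on either strand. The GC box was searched as GGGCGG. The CCAAT box was searched by its name. The ETS core was searched as CCGGAA. The RUNX core was searched as TGTGGT. The GATA motif was searched as AGATAA. The TATA box was searched as TATAAA. The AP-1-type motif was searched as TGANTCA. The STAT6-type palindrome, which binds the factor that IL-4 activates, was TTC followed by GAA after 4 bases. The palindrome called its control had a gap of 3. It is a comparison of letters only, and whether related factors bind it was not tested. In 4932412D23Rik a CCAAT box and a GC box overlap. Snhg6 and 4932412D23Rik, the latter with the highest standing of all, are CpG-rich. Gm28556, whose nearest coding start is that of Ptprc (CD45), and AC151478.1, which stood higher with IL-4, are CpG-poor.
Snhg6, chr1:9944069-9944368, minus strand: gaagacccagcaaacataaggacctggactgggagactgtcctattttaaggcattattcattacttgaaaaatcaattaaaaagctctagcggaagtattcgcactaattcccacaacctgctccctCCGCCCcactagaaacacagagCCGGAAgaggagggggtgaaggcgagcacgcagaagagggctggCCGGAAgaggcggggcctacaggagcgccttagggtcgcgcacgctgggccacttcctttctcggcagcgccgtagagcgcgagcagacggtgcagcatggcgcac
4932412D23Rik, chr16:42875713-42876012, minus strand: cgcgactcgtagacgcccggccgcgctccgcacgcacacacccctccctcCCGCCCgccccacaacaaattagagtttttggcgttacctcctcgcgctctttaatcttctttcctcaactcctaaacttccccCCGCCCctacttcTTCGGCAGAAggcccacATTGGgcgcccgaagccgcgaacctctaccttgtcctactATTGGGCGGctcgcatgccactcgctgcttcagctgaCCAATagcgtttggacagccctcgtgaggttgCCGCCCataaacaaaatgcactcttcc
Gm28556, chr1:138192078-138192377, minus strand: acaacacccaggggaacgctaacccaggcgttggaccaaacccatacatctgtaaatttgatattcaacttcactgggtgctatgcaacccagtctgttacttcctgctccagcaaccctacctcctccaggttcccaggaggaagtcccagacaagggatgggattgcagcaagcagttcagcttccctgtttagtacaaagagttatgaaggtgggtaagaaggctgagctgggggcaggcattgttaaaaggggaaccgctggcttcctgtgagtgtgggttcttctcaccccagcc
AC151478.1, chr19:44452767-44453066, plus strand: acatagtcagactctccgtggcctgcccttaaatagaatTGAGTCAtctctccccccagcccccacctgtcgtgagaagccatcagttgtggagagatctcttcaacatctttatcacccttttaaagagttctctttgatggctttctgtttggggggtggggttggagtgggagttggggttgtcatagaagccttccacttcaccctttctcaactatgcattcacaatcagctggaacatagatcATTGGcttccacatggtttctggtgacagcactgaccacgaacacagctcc
The next pair, 200 bases at the centre of a peak, shows a start called only with IL-4 (Gm30382) and one called only without it (Gm11579), read on the strand of the gene.
Gm30382, chr3:149445299-149445498, minus strand: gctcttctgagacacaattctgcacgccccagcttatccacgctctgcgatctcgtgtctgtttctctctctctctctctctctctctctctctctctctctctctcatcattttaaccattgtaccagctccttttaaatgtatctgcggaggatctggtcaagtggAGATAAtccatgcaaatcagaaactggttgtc
Gm11579, chr1:60781752-60781951, minus strand: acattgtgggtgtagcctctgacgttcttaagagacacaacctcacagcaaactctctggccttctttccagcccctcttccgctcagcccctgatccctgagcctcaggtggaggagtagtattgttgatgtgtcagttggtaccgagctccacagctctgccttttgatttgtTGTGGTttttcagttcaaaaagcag
A match to these letters is a description of the sequence and not a bound site.

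How much of the distal lincRNA set was open was asked in each library, over all 5196 candidates. A peak lay within 1 kb of 811 starts (15.6%) without IL-4 in replicate 1 and of 636 (12.2%) in replicate 2, and of 834 (16.1%) and 749 (14.4%) with IL-4. The libraries of the 2 conditions interleaved, with replicate 2 lower than replicate 1 in both. The mean was 723.5 ± 124 starts without IL-4 and 791.5 ± 60.1 with IL-4 (SD, n = 2), a difference of 68 that was within the spread (exact permutation test over libraries, two-sided, p = 0.667, with 0.333 the smallest p that 2 against 2 allows). Without the lower library (without IL-4, replicate 2) the difference was -19.5, the other way. With all lists held to the same length it was 19 (p = 1, exact permutation test). The counts followed the lengths of the lists: 10.5 and 11.2 distal starts were called per 1000 peaks without IL-4, against 10.6 and 11.1 with it.

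Distal starts were called far less often than the others. In the same libraries a peak lay at 58.6 ± 1.63% of 21938 protein-coding gene starts, against 14.6 ± 1.71% of distal lincRNA starts (SD over 4 libraries). The difference was -44.0 points (-44.1 to -43.9, lower in 4 of 4 libraries, exact sign permutation test, two-sided, p = 0.125, the smallest that 4 libraries allow). The lincRNA starts within 1 kb of a coding start, 363 in all, were called at 77.1 ± 0.675%, and the 295 from 1 to 5 kb away at 30.9 ± 3.41%, each above the distal starts in 4 of 4 libraries (exact sign permutation test, p = 0.125 for both).

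**Figure D1:**
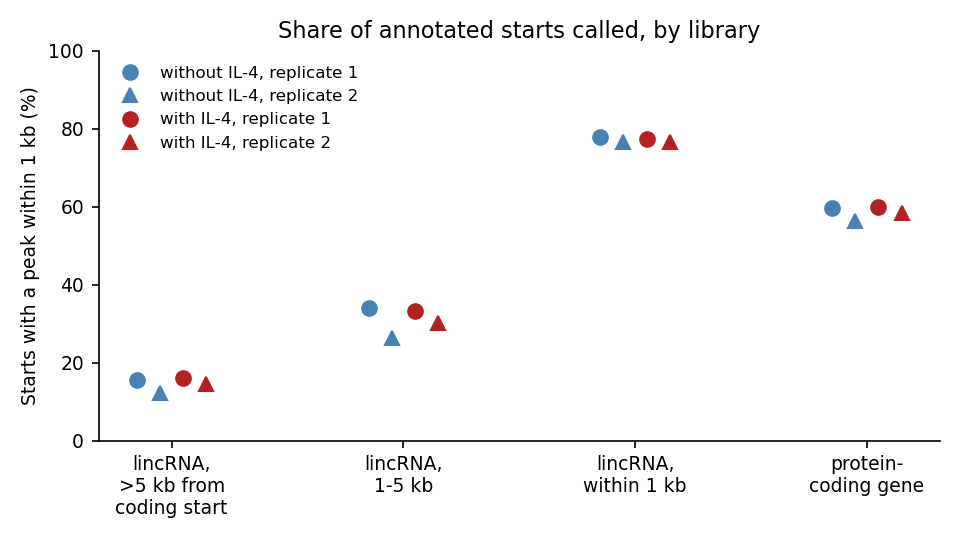
Share of annotated starts with a peak within 1 kb (y axis, %) for 4 classes of start (x axis). Each point is 1 library, blue without and red with IL-4, circles replicate 1 and triangles replicate 2. Distal lincRNA starts lie between 12.2% and 16.1% in every library, below the other classes.

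Among distal starts, openness fell with distance from coding genes. Of the candidates 5 to 10 kb from a coding start 32.7% were open, of those at 10 to 50 kb 27.1%, at 50 to 100 kb 18.8%, and beyond 100 kb 9.18% (214 of 2331). Starts whose first base lies in a masked repeat were open in 9.36% (147 of 1571), the others in 21.4%. By chromosome the share was highest on 17 (66 of 200, 33%), while 8 of 91 candidates on X and 0 of 548 on Y had a peak. Those on Y remain among the candidates of the other shares, and whether reads can be placed uniquely there was not tested. Candidates with a nearest coding gene from a list of T cell genes were open in 36.6% (49 of 134), against 17.2% of the rest. Open starts had a median of 5 merged open regions within 25 kb, the one at the start included, and uncalled ones a median of 0, and the part of the surroundings in these shares was not tested.

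A peak often lay on the start itself. It covered the start in at least 1 library in 447 of the 921 (48.5%), came within 500 bases in 276 more, and lay over 500 and up to 1000 bases away in 198. By library it covered 48.7% and 50.0% of the called starts without IL-4, against 47.5% and 49.7% with it. At coding starts the same share was 86.6%, 86.5%, 86.2% and 86.5%. Peaks at distal starts were narrower, with medians of 567, 510, 546 and 529 bases against 867, 809, 879 and 855 at coding starts. They were also weaker. The strength of a peak is given here by its standing, the percentage of peaks in the same list with a higher −log10 q, so that a small number is a strong peak. It is that of the strongest peak within 1 kb, which in 20 to 28 called starts per library was not the one nearest to the start. The median standing was 39.0, 41.5, 40.1 and 43.0 at called distal starts and 10.8, 12.2, 10.9 and 10.9 at called coding starts.

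**Figure D2:**
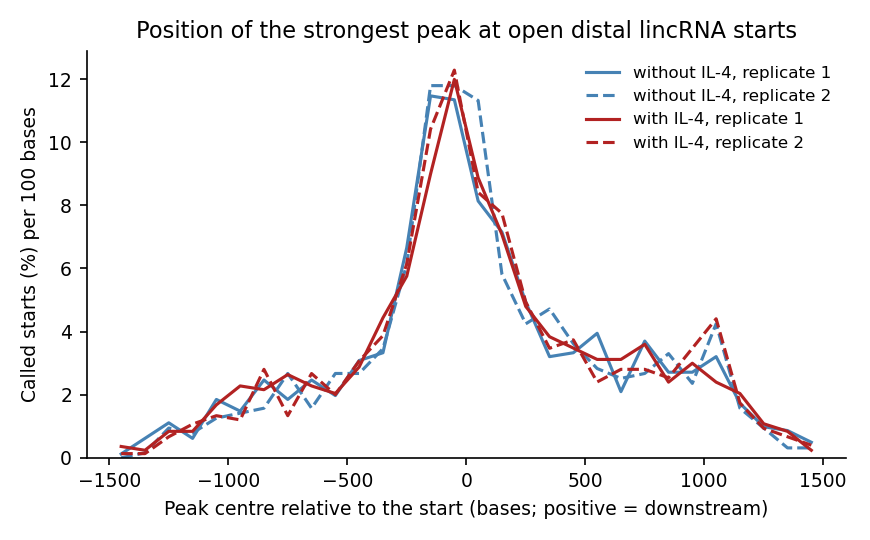
Position of the centre of the strongest peak relative to the lincRNA start (x axis, bases, positive in the direction of transcription) as the share of called starts per 100 bases (y axis, %), 1 line for each library (blue without and red with IL-4, solid replicate 1 and dashed replicate 2). The 4 lines rise at the start, to at most 12.3% per 100 bases.

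The calls were mostly shared. All 4 libraries called 596 of the 921 starts (64.7%). Of all 93503 merged regions 51% were called in all 4, and of 13561 coding starts called at all 89.6%. Exactly 1 library called 111 (12.1%), most often replicate 1 with IL-4 (46) or without (40), beside 21.6% of all merged regions and 3.81% of coding starts called at all. A further 82 lacked a peak only in replicate 2 without IL-4, the shortest list, and 63 were called in both libraries numbered 1 and in neither numbered 2. A peak covered the start in at least 1 library in 61.1% of the starts called in all 4. Of those called in 1 to 3 it did so in 25.5%, with fewer libraries in which it could. In 52 starts the peak lay in a merged region that also reached another open distal start, so these are not independent.

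Of 13 open starts of long RNAs described by name, 7 were called in all 4 libraries and 6 in 2 or 3, beside 64.7% of all 921 called in all 4. Malat1 and Neat1, neighbours on chromosome 19 (starts at 5802672 and 5845478) whose RNAs mark nuclear speckles and build paraspeckles, had a peak on the start in every library. The strongest peak near Malat1 was another one, 344 to 438 bases upstream of the start. It had a −log10 q of 289, 127, 209 and 237 (without IL-4 replicates 1 and 2, then with IL-4 replicates 1 and 2, the order used throughout), and stood at 8.5, 11.2, 10.9 and 8.5, while the peak on the start itself stood at 43.8, 51.3, 44.9 and 48.4. Neat1 stood at 8.7, 10.4, 12.8 and 11.3. At both peaks of Malat1 the conditions overlapped, and at Neat1 both peaks with IL-4 stood lower than both without, also with lists of equal length.

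Pvt1, next to Myc on chromosome 15, was open less strongly, at 51.4, 50.8, 34.1 and 42.7. Both values with IL-4 stood higher than both without, but with lists of equal length the conditions overlapped. Jpx and Ftx, non-coding genes of the X inactivation centre, stood at 15.9, 20.7, 15.9 and 17 and at 30.8, 54.2, 35.6 and 49.5, with the conditions overlapping. 2900097C17Rik, the mouse Norad gene, whose RNA binds Pumilio proteins, stood at 26.1, 39.4, 26.4 and 26.0. Lockd and AW112010 were singled out after their values were seen: Lockd, downstream of the cell cycle inhibitor gene Cdkn1b, stood at 8.8, 11.4, 8.2 and 11.3, and AW112010 at 32.8, 33.3, 40.4 and 33.2, both open in every library.

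The other 6 lacked a call in 1 or 2 libraries. Trp53cor1 (lincRNA-p21, beside Cdkn1a) was called in 3 libraries, at 85.2 in replicate 1 without IL-4 and at 80.0 and 87.9 with IL-4. Ifngas1, the non-coding neighbour of the interferon-γ gene Ifng, and Gm14005 (Morrbid, which lies in the region of Bcl2l11) were called only in the libraries numbered 1. Ifngas1 stood at 70.8 without and 82.6 with IL-4, and Gm14005 at 50.8 and 47.4. Bvht, Carmn and Lncenc1 were called through peaks 877 to 997 bases away and not at the start, and none was called in replicate 2 without IL-4. The peak near Bvht was a strong one where it was called, at 23.7 in replicate 1 without IL-4 and at 24.6 and 30.9 with IL-4. Carmn stood at 78.9 and 56.7 in the libraries numbered 1, and Lncenc1 at 85.0 without and at 75.1 and 85.5 with IL-4.

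Of the described and host genes looked up by symbol, 21 were open distal starts and 9 were candidates without a peak in any list: Xist, the RNA that silences an X chromosome, the imprinted H19, Meg3 and Mirg, Hotair of the Hoxc cluster, Miat, Rmst, Platr4 and Mir124-2hg. Of the rest, 19 symbols were not used in this annotation. Norad and Morrbid are among these, and their genes were counted above as 2900097C17Rik and Gm14005. Another 6 lay within 5 kb of a coding start, 17 were of the type processed_transcript, 8 of the type antisense, 6 of the type miRNA and 3 of other types. A missing peak says only that none reached the lists.

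Hosts of small RNAs ranged from very strong to very weak peaks. Of 59 candidates with a microRNA gene in their body 23 were open (39.0%) and 17 of these in all 4 libraries, and of 31 with a small nucleolar RNA gene 8 were open and 7 in all 4. Of candidates with neither 17.4% were open, and 64.3% of these in all 4, beside 73.9% of the open microRNA hosts and 87.5% of the open small nucleolar RNA hosts. The let-7 host 6720427I07Rik stood at 0.8, 0.9, 0.9 and 0.9, within the top 1% of peaks in every list, and Gm20732, which holds Mir30d, at 1.1, 0.9, 0.9 and 1.3. Smkr-ps stood at 2.8, 5.4, 2.9 and 5.1. Weaker ones were Gm8239, called only in replicate 1 without IL-4 (97.2), and C130071C03Rik, the host of Mir9-2 and named after its values were seen, called only in replicate 1 with IL-4 (96.6).

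Mir155hg (chromosome 16) had its peak on its start in every library, at 15.7, 16.6, 12.9 and 14.1. Both values with IL-4 stood higher than both without, by 1.6 points between the nearest libraries, but with lists of equal length the conditions overlapped. Mir17hg (chromosome 14) stood at 20.2, 15.2, 21.4 and 18.3, with the conditions overlapping. Its peak did not cover the annotated start in any library and began 350 to 395 bases away. Gm49317, host of Mir100, Mirlet7a-2 and Mir125b-1, was called in all 4 but weakly, at 60.7, 81.7, 71.5 and 77.8. Mir124a-1hg was called in 3 libraries (89.5, none, 87.5 and 74.4), Mir9-3hg only in replicate 1 with IL-4 (84.8) and Mir670hg only in replicate 1 without IL-4, through a peak with a −log10 q of 1.46, near the lowest of its list.

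Of the 8 open starts that hold a small nucleolar RNA gene, all but Gm8239 were called in every library. Snhg6 stood at 5.4, 7.2, 4.2 and 5.5, Snhg12 (host of Snora16a, Snora44, Snora61 and Snord99) at 15.4, 19.7, 16.0 and 14.2, and Epb41l4aos at 7.6, 10.9, 7.5 and 8.2. Each had its peak on the start in all 4 libraries. Snhg20, whose annotated body holds Mir6516 and no small nucleolar RNA gene, stood at 16.0, 21.7, 15.8 and 17.5 through a peak 353 to 502 bases off. The conditions overlapped at Snhg6 and Snhg12, though with lists of equal length both values with IL-4 stood higher than both without at Snhg6.

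**Figure D3:**
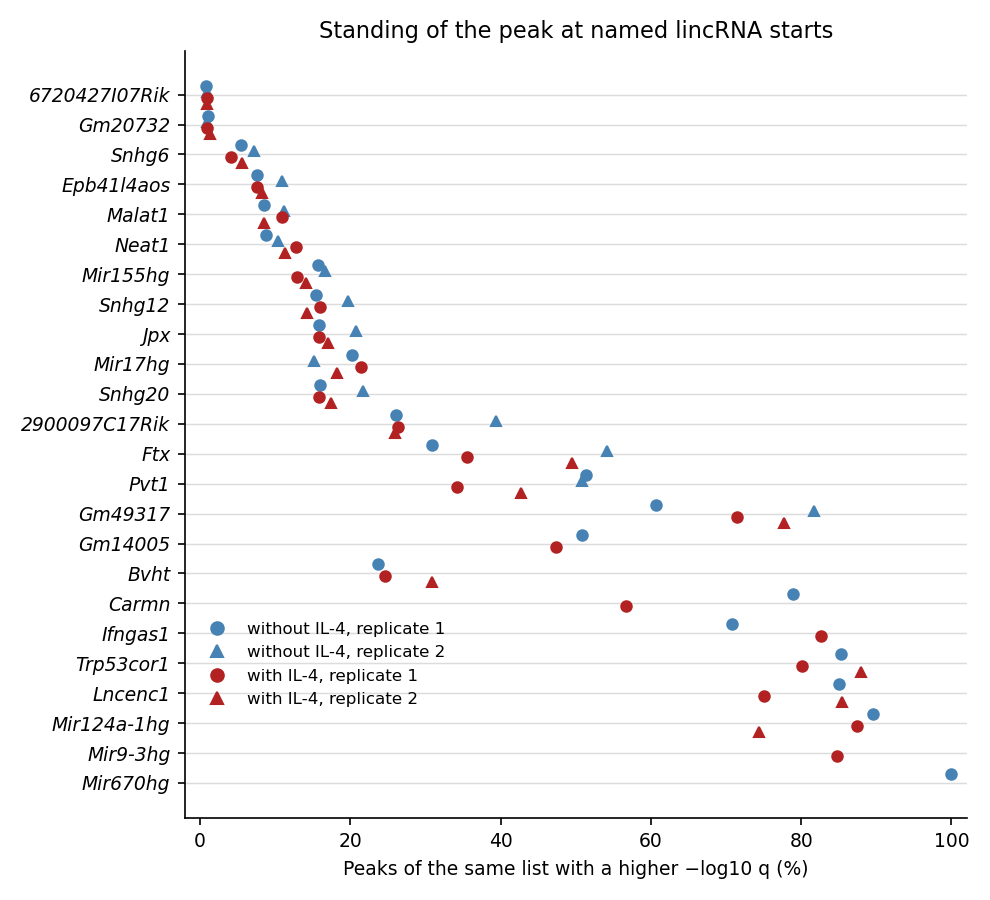
Standing of the peak (x axis, percentage of peaks in the same list with a higher −log10 q, so strong peaks lie to the left) at named lincRNA starts (rows). Blue points are libraries without and red with IL-4, circles replicate 1 and triangles replicate 2, and a missing point is a library without a peak. The let-7 host 6720427I07Rik lies below 1% in every library, while Mir9-3hg and Mir670hg have 1 point each.

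The 8 starts with the best standing in their weakest library were 4932412D23Rik, 6720427I07Rik, 1700096K18Rik, Gm20732, Gm6410, Gm11527, 4930580E04Rik and Gm33195. The highest was 4932412D23Rik on chromosome 16, nearest to Zbtb20, a zinc finger repressor gene, at 0.2, 0.3, 0.1 and 0.4. Gm33195, nearest to the activation marker gene Cd83, stood at 0.7, 2.0, 0.6 and 0.8. All 8 had their peak on the start and 7 were CpG-rich. Over the 596 starts called in all 4, 50 stood within the top 10% of every list and 182 within the top 25%.

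For 49 of the 921 open starts the nearest coding start was that of a gene of the T cell programme, at distances that differed widely. Of these 49, 34 were called in all 4 libraries (69.4%), beside 64.4% of the other open starts. Gm28556, 16821 bases from a start of Ptprc, stood at 9.6, 14.9, 9.0 and 12.7, and Gm27162, 232582 bases from one of Ets1, a transcription factor gene of lymphocytes, at 5.8, 9.0, 8.4 and 7.9. Gm37170, 70088 bases from a start of Foxo1, a factor of naive T cells, stood at 4.8, 9.7, 3.7 and 6.4. Gm4668, 13820 bases from one of Tgfbr2, the receptor chain that binds TGF-β, stood at 19.9, 22.3, 17.4 and 22.4. The conditions overlapped at all 4, though with lists of equal length both values with IL-4 stood lower than both without at Gm27162. Peaks also lay at 2010110G14Rik, 173134 bases from a start of the TCF family gene Lef1 (20, 25.2, 19 and 17.4), and at Gm32255, 37768 bases from Egr2, a factor induced by the T cell receptor (13.5, 18.3, 11.4 and 13.6). AC157910.4, 15939 bases from a start of Malt1, which encodes a signalling protease of lymphocytes, stood at 13.2, 20.3, 13.3 and 18.1. At 2010110G14Rik both values with IL-4 stood higher than both without, though not with lists of equal length, and at the other 2 the conditions overlapped. At Gm32255 both values with IL-4 stood higher once the lists were of equal length.

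Several coding genes were the nearest to more than 1 open lincRNA start, those named here 20863 to 46705 bases away. At the early activation gene Cd69, 2310001H17Rik and Gm47861 lie on opposite strands and shared 1 peak (14.7, 14.9, 13.8 and 14.9). At Il6st, which encodes the signalling chain gp130, 2810403G07Rik stood at 7.8, 11.2, 7.1 and 7.6 and Gm48876 at 15.8, 15.1, 15.7 and 13.6. At Gfi1, a repressor gene, 4930428O21Rik stood at 12.1, 16.3, 10.9 and 12.5 and Gm26692 at 12.5, 12.3, 12.8 and 11.2. Of these only 2810403G07Rik stood higher in both libraries with IL-4 than in both without, while the conditions overlapped at the others. This held for 2810403G07Rik and for 4930428O21Rik with lists of equal length.

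CpG content set open starts apart from the rest of the candidates, and the rule did not use it. In the 300 bases at the start the median observed to expected CpG ratio was 0.288 (quartiles 0.162 and 0.469) over the 921 and 0.182 (0.0940 and 0.303) over 4275 uncalled candidates. It was 0.332 for starts called in all 4 libraries and 0.212 for those called in 1 to 3, while 13561 coding starts with a peak had 0.732. With a CpG-rich start defined as a ratio above 0.6 and a GC content above 50%, 118 of the 921 were CpG-rich (12.8%) against 63 of the uncalled (1.47%). Turned round, 65.2% of 181 CpG-rich candidates were open and 89.0% of those in all 4 libraries, against 16.0% and 61.1% of the others.

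CpG-rich starts gave nearly the same count in every library and the others did not. Of the CpG-rich ones 112 and 107 were called without and 112 and 111 with IL-4. Of the others 699 and 529 were called without and 722 and 638 with IL-4. The lower count in replicate 2 without IL-4 lay almost wholly with starts that were not CpG-rich. In starts called in all 4 the median standing of CpG-rich ones was 12.5, 15.4, 12.0 and 13.6, and of the others 32.4, 42.4, 32.5 and 36.5.

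**Figure D4:**
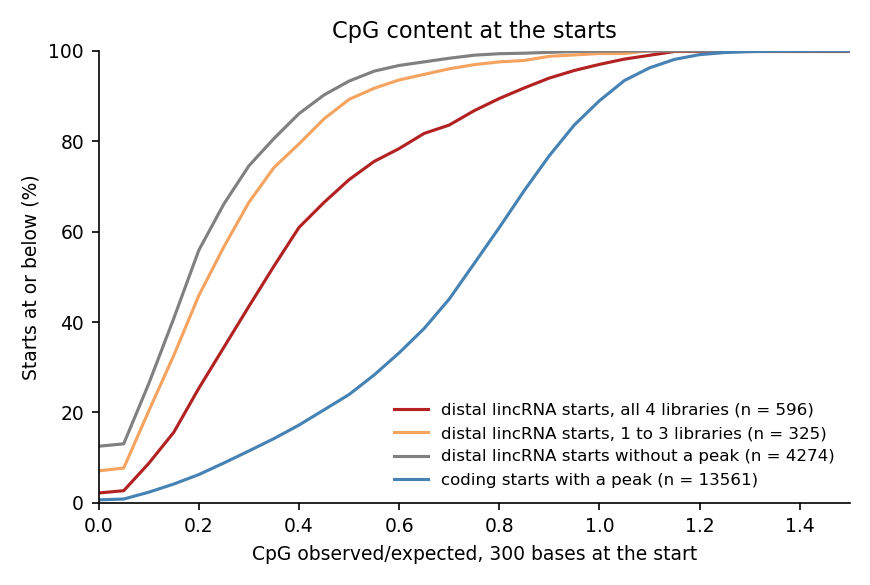
Cumulative share of starts (y axis, %) at or below each observed to expected CpG ratio in the 300 bases at the start (x axis). Red lines are distal lincRNA starts called in all 4 libraries (dark) or in 1 to 3 (light), grey is distal starts without a peak (4274 with a ratio) and blue coding starts with a peak. The line of starts called in all 4 lies between those of the uncalled and the coding starts, with medians of 0.332, 0.182 and 0.732.

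The GC box and the ETS core, motifs of many CpG-rich promoters, differed in the same sense as the CpG ratio, and the CCAAT box did not. GGGCGG and CCGGAA each hold a CG and CCAAT holds none, so part of this is built into the letters. The GC box was in 17.6% of open starts, 5.66% of uncalled candidates and 60.8% of coding starts with a peak, and the ETS core in 10.3%, 5.54% and 25.4%. The CCAAT box was in 34.6% of open starts, 44.6% of uncalled candidates and 38.3% of coding starts with a peak. In the starts called in all 4 libraries the GC box was in 23.8%, in those called in 1 to 3 in 6.15%. The RUNX core went the other way, in 20.1% of the former and 26.5% of the latter, with 19.4% of the uncalled and 13.0% of the coding starts. The GATA letters were in 12.4% of open and 18.1% of uncalled starts, and TATAAA in 12.8% and 17%. The STAT6-type letters were in 7.27% of open and 7.81% of uncalled starts, and the control palindrome in 10.9% and 9.36%.

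Few starts were called in 1 condition alone. Both libraries with IL-4 and neither without called 25 (2.71%), and the reverse held for 4 (0.434%). These became 10 and 5 once all lists were held to the same length. Among all merged regions, 2.6% were called only with IL-4 and 0.698% only without, so the shares of the lincRNA starts lay near this background. Of coding starts called at all, 0.553% and 0.17% fell into these patterns. Since the calls chose the members, these shares are not tested.

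At 4 of the 25 starts called only with IL-4 the same peak was also present in both libraries without it, just past the 1 kb limit. These were Gm23925 (standing 11.8 and 13.3 with IL-4, nearest edge 934 bases away with and 1008 without), Gm33337 (52.6 and 39.7), Gm48879 near Il6st (43.5 and 58.7) and Gm26803 (81.8 and 71.9). At these 4 the peak itself was thus called in all 4 libraries. At the other 21 no peak without IL-4 shared a base with it, and in 19 of them the peaks of both libraries with IL-4 overlapped each other. In 10 of these 21 the nearest peak without IL-4 was more than 10 kb away.

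These 21 were weak peaks. The strongest by its weaker library was Gm41336 on chromosome 15 (71.5 and 72.8), followed by Gm30382 on chromosome 3 (73.6 and 68.4), both with the peak on the start. Gm48341 stood at 75.8 and 72.8, Gm41517 near Arid1b at 73.6 and 77.8 and Gm48453 at 69.6 and 77.8. At Gm31518, at 62.5 and 80.3, the peaks of the 2 libraries did not overlap. Tbx3os2, beside the developmental factor gene Tbx3 and chosen here after its values were seen, stood at 90.0 and 75.3. The 200 bases of Gm30382 printed above held AGATAA. The 25 starts called only with IL-4 include the 4 named above whose peak was called in all libraries. They are thus a mixed set beside merged regions called only with IL-4. In all 25 the STAT6-type letters were found in 1 peak centre (4.0%), against 3.19% of the starts called in all 4. In 2435 merged regions called only with IL-4 the share was 13.1%. The control palindrome was found in 3 of the 25 (12%), against 7.72% and 7.31% of the same sets.

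The 4 starts called only without IL-4 were also weak by standing. Gm11579, near the costimulatory receptor gene Cd28, stood at 85.0 and 72.1 with its peak on the start. By height it was near the middle of these lists, with 50.4% and 47.3% of peaks higher. The nearest peak with IL-4 was 2502 bases from the start of Gm11579. Its neighbour 2310016D23Rik, named after its values were seen, was called in all 4 libraries at 52.4, 72.1, 56.3 and 58.6. Gm49293 stood at 88.1 and 85.7 and Gm37184 at 74.7 and 89.7, with no peak with IL-4 within 10 kb. At Gm3716 (90.4 and 81.7) the peaks of the 2 libraries did not overlap and a peak of replicate 2 with IL-4, 1090 bases from the start, shared bases with the peak of replicate 2 without it.

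Whether shared starts stood higher or lower with IL-4 was asked of the 596 called in all 4. Their median standing was 29.8 and 39.3 without and 29.5 and 32.8 with IL-4, a difference of -3.40 points (exact permutation test over libraries, two-sided, p = 0.667). The same medians over 47710 merged regions called in all 4 were 31.2, 42.5, 30.7 and 35.5, a difference of -3.79. Without replicate 2 of the libraries without IL-4 the difference of the lincRNA starts was 2.51, the other way. With all lists held to the same length it was 0.0741. Both values with IL-4 stood higher than both without in 110 starts (18.5%) and lower in 32 (5.37%). Among all regions called in all 4 the shares were 19.7% and 5.17%, so those of the lincRNA starts lay near the background. This excess of starts that stood higher was gone with all lists held to the same length. Then 555 starts were called in all 4, of which 79 stood higher (14.2%) and 79 lower (14.2%), beside 14% and 12.5% of all regions.

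The widest gap in favour of IL-4 was at AC102496.1, 5498 bases from a start of Pik3c3, which stood at 87.0 and 92.9 without and 58.1 and 52.1 with IL-4 (-34.9 points in the mean). AC151478.1, with the AP-1-type letters in its sequence above, went from 70.0 and 72.5 to 47.0 and 48.6 (-23.4), AC141471.5 from 53.9 and 55.1 to 33.2 and 35.7 (-20.1), Gm33994 from 42.8 and 45.7 to 24.0 and 29.0 (-17.7) and Gm47326 from 67.9 and 67.5 to 50.5 and 49.7 (-17.6). These 5 had the widest gaps in this direction between the nearest libraries of the conditions, and no test across starts was made. With lists of equal length AC151478.1, AC141471.5 and Gm33994 still stood higher in both libraries with IL-4, the conditions overlapped at Gm47326, and AC102496.1 was no longer called in all 4.

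The 5 starts that stood lower with IL-4 by the widest gap included 5330413D20Rik on chromosome 8, at 72.7 and 59.1 without and 85.1 and 99.7 with IL-4 (26.4 points). AC133525.1 went from 55.3 and 70.8 to 90.0 and 88.5 (26.2) and Gm44174, nearest to the CD8 chain gene Cd8a, from 54.6 and 62.8 to 75.8 and 84.7 (21.5). AC154187.1 and 1700063H04Rik moved by 18.9 and 16.0 points. With lists of equal length only AC154187.1 of these 5 was still called in all 4, and it stood lower with IL-4 there too. The median change was -0.694 points over CpG-rich starts and -2.46 over the others, beside -1.97 over all 596. It was -2.05 over all regions and -0.658 over coding starts called in all 4. Once the lists were of equal length it was 0.186 over CpG-rich starts, 0.0609 over all starts called in all 4 and 0.0309 over all regions.

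**Figure D5:**
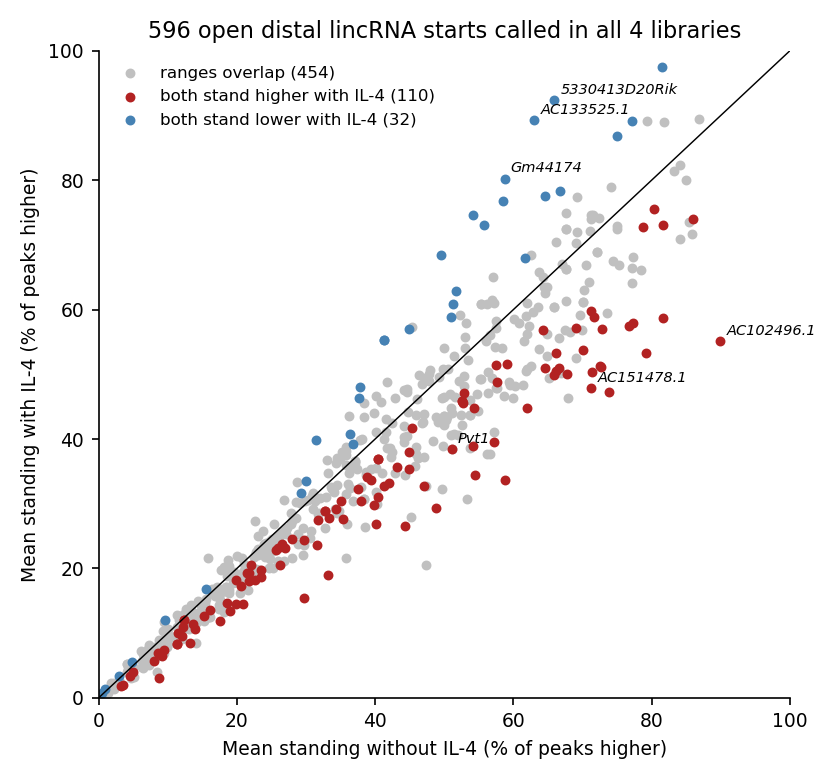
Mean standing with IL-4 (y axis) against mean standing without IL-4 (x axis), both as the percentage of peaks in the same list with a higher −log10 q, for the 596 open distal lincRNA starts called in all 4 libraries. Red points are the 110 whose values with IL-4 both stood higher and blue the 32 whose values both stood lower. Most points lie near the diagonal and the widest changes are among weak peaks.

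By group, the counts are set beside the 19.7% of all regions called in all 4 that stood higher with IL-4 in both libraries and the 5.17% that stood lower. Of 105 CpG-rich starts called in all 4, 20 stood higher (19%) and 5 lower (4.76%). Of 34 starts whose nearest coding gene is a T cell gene 7 stood higher (20.6%) and 4 lower (11.8%), the latter a larger share than over all regions but only 4 starts, with a median change of -1.21 points. Of 17 microRNA hosts 4 stood higher (23.5%) and 0 lower, with a median change of -0.57. Of 7 small nucleolar RNA hosts 2 stood higher (28.6%) and 0 lower, with a median change of -2.13. No test was made of these counts. With lists of equal length the CpG-rich starts split into 16 higher and 13 lower of 100 and the T cell neighbours into 5 and 7 of 33. The microRNA hosts then split into 0 and 2 of 16 and the small nucleolar RNA hosts into 2 and 1 of 7. In the same order of groups the median changes were then 0.186, 0.774, -0.0097 and -1.10 points.

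At the limit of the rule, the edges of the peaks of Gm11184 and Gm26530 lay 995 and 994 bases from the start and those of Gm49313 and Gm16302, left out, 1001 and 1002 bases. Gm37552 and Gm37584, 5027 and 5040 bases from a coding start, were kept, and Gm15729 and B230311B06Rik, at 4987 and 4969, were not. Gm37552 was called in all 4 libraries at 10.6, 21.7, 8.5 and 16.4.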

How the data were processed

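The authors mapped the reads of 4 ATAC-seq libraries to mm10 with Bowtie2 2.2.5 and called peaks in each library with MACS2 2.1.2, and their notes also name bedtools 2.16.2 without its role. Each deposited list gives a peak's position, its −log10 q-value and its height, a pileup signal, neither scaled between libraries by the authors. The correction for transposase insertion and the removal of duplicates are not given in the sources used here, and their effect was not tested.

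Starts were the 5' ends of GENCODE vM21 genes of type lincRNA on GRCm38, and a start counted as open in a library whose list had a peak reaching, by 1 base or more, into the 1000 bases on either side. Where several peaks did, the one with the highest −log10 q was used. Peaks of the 4 lists were merged into regions for the background. Python 3.11.15 with pandas 2.3.3, numpy 2.4.6, scipy 1.17.1, matplotlib 3.10.9 and samtools 1.23.1 was used, and the calling was tested on simulated lists. Motifs were searched on both strands. Conditions and replicate numbers came from the labels. Conditions were compared by exact permutation tests over libraries and classes of start by an exact sign permutation test, both two-sided, with no test across starts.

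The members and gene lists were chosen with earlier results of these data known. Genes named are open starts on lists of described long RNAs and of small RNA hosts, hosts by annotation, the best 10 called in 1 condition, the best 8 in all 4, the 5 with the widest gap in each direction, the best 15 nearest to T cell genes and those at the limits. As alternatives, only the upper 50% of the peaks in a list were used, lists were cut to 56645 peaks, windows were set to 500 or 2000 bases, peak centres, every lincRNA transcript start, every transcript of coding genes or a distance of 10 kb were used, each library was left out, peaks were ranked by height or among shared regions, replicate numbers were used as a block, and CpG was read in 500 bases around the start. Calling by merged region, leaving out libraries for CpG content, and standings of single starts with lists of equal length were added after seeing the data.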

Additional observations from a re-analysis of the deposited data

How the results depend on the processing

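The tests kept their side of the threshold under all alternatives run, but none could have crossed it. Neither 2 libraries against 2 nor the signs of 4 libraries can reach 0.05. Of 104 alternative values 4 changed sign and 16 moved, counts by over 1.5 times and the CpG difference by over 0.0136, its SD over libraries. The other 84 lay within these limits or, for tested differences, kept only their direction. With the upper 50% of each list 569 distal starts were open, 354 of them in all 4 libraries and 8 only with IL-4, and the CpG difference was 0.130 in place of 0.106. With lists of equal length 10 were called only with and 5 only without IL-4, the CpG difference was 0.124, the difference in starts called 19 in place of 68 and that in standing 0.0741, and 79 starts stood higher and 79 lower with IL-4 in place of 110 and 32. With a window of 500 bases 15 starts were called only with and 2 only without IL-4, and the CpG difference was 0.133. Ranked among regions called in all 4, the difference in standing was 0.183, the other way. The cause of these shifts was not tested, beside the shorter lists or window that leave fewer calls. By merged region 621 starts were called in all 4 libraries, 22 only with and 3 only without IL-4.

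Leaving out 1 library in turn gave 875 to 916 open starts, 602 to 678 called in all that remained, 33 to 107 only with and 9 to 44 only without IL-4, where the remaining library of a condition decides alone. The difference in starts called ran from -19.5 to 155.5 and that in standing from -8.40 to 2.51, the sign turning without replicate 2 of the libraries without IL-4. The difference from coding starts stayed at -44.0 to -43.9 points and that in CpG ratio at 0.105 to 0.113. With the replicate block the difference in starts called was 68 and that in standing -3.40 (exact permutation of pair signs, p = 0.5 for both, the smallest 2 pairs allow). Nothing in the labels says that the numbers pair the libraries. The deviations in standing of same-numbered libraries correlated over the 596 starts (r = 0.520), and both lists numbered 1 were longer than those numbered 2.

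The lists give no depth, so how many uncalled starts are open below the calling threshold cannot be told. No test was made for a single start. With 2 pooled samples per condition, the spread can be technical.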
